A study of Mus musculus with 4 samples.

Results

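Odour transduction begins when a receptor in the cilia of an olfactory sensory neuron activates the olfactory G protein, and 5 genes that act at this step are described here out of 23337 gene symbols listed in the count files. They were chosen by name, with earlier results of these data known. Gnal encodes the G alpha subunit Golf, Gnb1 encodes the G beta 1 subunit and Gng13 encodes the G gamma 13 subunit. Ric8b encodes a chaperone and guanine nucleotide exchange factor that acts on Golf, and Adcy3 encodes adenylyl cyclase 3, which the activated alpha subunit stimulates.

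In a resting neuron the alpha subunit binds GDP and sits with the beta and gamma subunits below the receptor. An odorant-bound receptor exchanges GDP for GTP, the alpha subunit leaves the beta-gamma dimer and the cyclase makes cyclic AMP, which opens a cyclic nucleotide-gated channel. Gnal and Adcy3 are well known as genes of mature olfactory sensory neurons, whereas Gnb1 is used by many cell types.

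Tomato-positive cells were sorted from the olfactory epithelium of 1 mouse per library after regeneration and profiled by RNA-seq, with 2 control (Lmnb1+/-) and 2 mutant (Lmnb1-/-) libraries. All 4 mice carried Cre recombinase driven by the Keratin 5 promoter, which within this epithelium is active in horizontal basal cells (resident stem cells), and a Cre-dependent tdTomato reporter (R26 Ai9), on a mixed background. Cre removed exon 2 of floxed Lmnb1 (both alleles in mutants, 1 in controls), so the genotype is that of the sorted cells, and Tomato-negative neighbours in the same tissue kept Lmnb1. Methimazole, which damages the epithelium, was injected 2 times at 50 mg/kg into adult mice, and the tissue recovered for 4 weeks. The sorted cells thus included horizontal basal cells with their neuronal and non-neuronal progeny. Control 1 and mutant 1 formed experimental group 1, and control 2 and mutant 2 formed experimental group 2. Mice of 1 group shared parents, age, sex and treatment, and also sample preparation and sequencing. Per the design text the groups differed in treatment, parents, age and sex, although the listed dose and recovery time were the same. Ages of single mice are not given in the sources used here. Gene counts summed to between 14833396 and 23704638 per library. Mutant 1 stood apart, with 39.4% of its uniquely aligned reads outside annotated genes compared with 22.1 to 24.9% in the other libraries. In genes that had 0 counts in every other library, mutant 1 had a median of 1.79 counts per kb of exon. That level would make up at most 0.114% of the mutant 1 count of any of the 5 genes. Some of these genes had many more counts, among them the enamel genes Ambn and Enam with 4916 and 295 in mutant 1. The source of these counts was not tested. Lmnb1 was at 20.6 and 18.8 CPM (counts scaled to library size) in controls 1 and 2, and at 14.1 and 10.1 CPM in mutants 1 and 2. Its log2 fold change of -0.72 did not pass (edgeR adjusted p = 0.195), and the count covers all exons, not only the deleted one. The paper reports depletion of the Lmnb1 transcript in sorted mutant cells by PCR outside the deleted exon. It also reports that most Tomato-positive cells of mutant tissue lacked lamin B1 by antibody staining.

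The promoters of 4 of the 5 genes are shown so that their letters can be compared beside RNA levels that were lower together. Windows of 300 bases run from 250 bases before to 50 bases after a transcript start (RefSeq, GRCm38.p6, plus strand for all of them). The 6 RefSeq windows examined were of Gnb1, Ric8b, Adcy3 and Gng13, and no window of Gnal was examined. Below is 1 window per gene, at chr4:155491111-155491410 for Gnb1, chr10:84917363-84917662 for Ric8b, chr12:4133147-4133446 for Adcy3 and chr17:25716922-25717221 for Gng13. Capitals mark TGACG on either strand, the short core of the cyclic AMP response element, and CCCNNGGG, the core of the Olf-1/EBF motif that was first described at promoters of olfactory neuron genes.
Gnb1: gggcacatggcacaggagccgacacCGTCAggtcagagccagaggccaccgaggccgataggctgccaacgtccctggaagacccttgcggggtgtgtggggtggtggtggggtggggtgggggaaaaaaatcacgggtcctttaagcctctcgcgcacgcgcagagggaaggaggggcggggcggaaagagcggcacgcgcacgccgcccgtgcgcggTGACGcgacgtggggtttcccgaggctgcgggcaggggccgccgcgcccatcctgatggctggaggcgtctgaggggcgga
Ric8b: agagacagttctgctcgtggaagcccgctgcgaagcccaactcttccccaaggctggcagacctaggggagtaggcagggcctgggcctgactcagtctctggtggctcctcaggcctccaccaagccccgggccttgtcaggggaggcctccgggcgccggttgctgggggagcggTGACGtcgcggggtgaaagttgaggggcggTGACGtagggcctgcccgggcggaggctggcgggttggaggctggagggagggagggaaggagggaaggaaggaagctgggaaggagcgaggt
Adcy3: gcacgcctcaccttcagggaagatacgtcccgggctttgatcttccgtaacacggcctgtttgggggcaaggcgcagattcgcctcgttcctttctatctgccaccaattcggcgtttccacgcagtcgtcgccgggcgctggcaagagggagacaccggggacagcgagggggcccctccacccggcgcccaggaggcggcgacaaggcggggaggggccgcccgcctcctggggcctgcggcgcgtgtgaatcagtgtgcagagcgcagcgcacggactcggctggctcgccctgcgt
Gng13: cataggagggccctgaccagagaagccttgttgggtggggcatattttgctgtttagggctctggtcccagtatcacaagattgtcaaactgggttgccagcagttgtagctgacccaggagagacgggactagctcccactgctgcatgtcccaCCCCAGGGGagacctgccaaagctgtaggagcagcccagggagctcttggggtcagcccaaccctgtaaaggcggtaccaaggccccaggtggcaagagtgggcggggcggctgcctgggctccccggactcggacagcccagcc
TGACG occurred in the Gnb1 window, 225 bases before the start on the minus strand and 31 bases before it on the plus strand, and in the Ric8b window, 73 and 43 bases before the start. Of 32851 mouse promoter windows of this length, 20.8% held it on either strand. The Olf-1/EBF core occurred in the Gng13 window as a pair of overlapping matches 95 and 94 bases before the start, and 13.7% of all windows held it. The Adcy3 window above, and a further window each of Adcy3 and Gng13, held neither. The longer form of the Olf-1/EBF motif, which is the same core preceded by T and followed by A, and the homeodomain motif TAATTA occurred in 0 of the 6 windows, against 0.904% and 5.29% of all windows. GC content was 56.0 to 72.0% in the 6 windows and the median of all windows was 52.7%. A match is a run of letters and not a measured binding site.

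All 5 genes were strongly expressed in control cells and lower in the mutant of each experimental group (the plot of CPM by library). CPM were scaled with TMM factors, which correct for library composition. The 5 genes together took 0.560% of gene counts in control 1 and 0.366% in control 2, compared with 0.343% in mutant 1 and 0.145% in mutant 2. Gnal, Gng13, Ric8b and Adcy3 passed the test for genotype, an edgeR likelihood-ratio test with experimental group as replicate block and an adjusted p under 0.05 over 15438 tested genes. Gnb1 did not. Thus 4 of 5 were lower and 0 were higher, where 4.3% of all tested genes were lower and 1.28% were higher. Because the 5 genes were chosen with earlier results of these data known, this contrast is a description and not independent support. The median log2 fold change of the 5 genes was -1.16, and that of all tested genes was -0.01. In a sorted population of mixed cell types, fewer cells that express a gene and less RNA per such cell cannot be told apart.

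**Figure D1:**
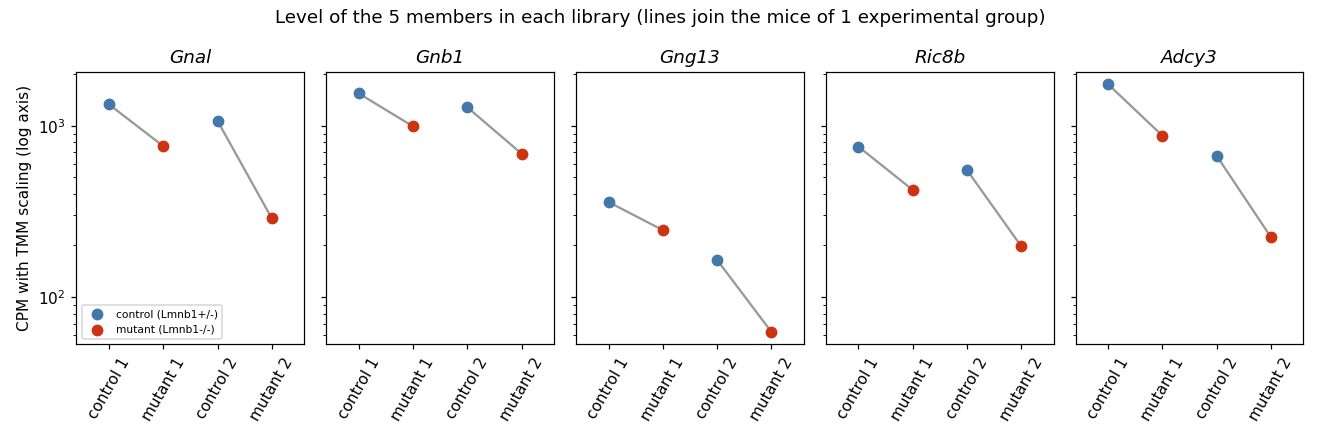
CPM with TMM scaling (log axis) of Gnal, Gnb1, Gng13, Ric8b and Adcy3 in each library, with controls in blue, mutants in red and lines joining the control and mutant of 1 experimental group. Each mutant lies below its own control for every gene, whereas mutant 1 lies above control 2 for Gng13 (246 against 165 CPM) and Adcy3 (874 against 667 CPM).

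Gnal lies on chromosome 18 (67088216 to 67226792, plus strand, mm10) and encodes the alpha subunit that carries the signal from receptor to cyclase. Controls 1 and 2 had 30793 and 22412 counts (1331 and 1067 CPM), and mutants 1 and 2 had 17519 and 4242 counts (760 and 287 CPM). Both mutants were below both controls, and mutant 2 was far below the other 3 libraries. Its log2 fold change of -1.35 (SE 0.31, 95% interval -1.97 to -0.73) left 39.2% of the control level (edgeR adjusted p = 0.00176). Within experimental groups 1 and 2 the log2 ratios of mutant to control were -0.81 and -1.89, the widest gap between experimental groups among the 5 genes.

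Gnb1 lies on chromosome 4 (155491361 to 155559269, plus strand) and encodes the beta subunit that, with a gamma subunit, holds the inactive alpha subunit at the membrane. Its counts were 35699 and 26906 in controls 1 and 2 (1543 and 1282 CPM), compared with 22836 and 10120 in mutants 1 and 2 (990 and 686 CPM). Both mutants were below both controls. The log2 fold change was -0.77 (SE 0.28, 95% interval -1.32 to -0.23), and the edgeR adjusted p of 0.0857 missed the threshold. The quasi-likelihood test of the same model gave an adjusted p of 0.0153 (edgeR), and DESeq2 gave an adjusted p of 4.47e-07, so the call on Gnb1 differed between tests. Its ratios of -0.64 and -0.90 differed from each other by less than those of Gnal, Gng13, Ric8b or Adcy3.

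Gng13 lies on chromosome 17 (25717171 to 25719406, plus strand) and encodes the gamma subunit that partners the beta subunit in olfactory neurons and also in taste and tuft cells. In experimental group 1 it had 8288 counts in the control and 5665 in the mutant (358 and 246 CPM), and in experimental group 2 it had 3455 and 923 counts (165 and 62.6 CPM). Mutant 1 was above control 2, so the genotypes overlapped across experimental groups, although each mutant was below its own control. The log2 fold change was -0.97 (SE 0.25, 95% interval -1.45 to -0.48; adjusted p = 0.00453 in edgeR), with ratios of -0.54 and -1.39. Exons of Chtf18, a DNA replication gene on the opposite strand, cover 51.6% of the Gng13 exon sequence. The strand setting of the counting is not given in the sources used here, so reads of this stretch may have been left unassigned. Chtf18 itself had 11.0 to 22.0 CPM over the 4 libraries, below Gng13 in every library.

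Ric8b lies on chromosome 10 (84917616 to 85018337, plus strand) and encodes the factor that stabilises Golf and speeds its loading with GTP. Controls 1 and 2 had 17481 and 11584 counts (756 and 552 CPM), while mutants 1 and 2 had 9730 and 2921 counts (422 and 198 CPM). Both mutants were below both controls, as for Gnal. At a log2 fold change of -1.16 (SE 0.27, 95% interval -1.68 to -0.64) Ric8b passed with an edgeR adjusted p of 0.00113, and its ratios were -0.84 and -1.48.

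Adcy3 lies on chromosome 12 (4133103 to 4213525, plus strand) and encodes the cyclase that turns Golf activity into cyclic AMP. Counts in control and mutant were 40379 and 20156 in experimental group 1 (1745 and 874 CPM), and 14001 and 3295 in experimental group 2 (667 and 223 CPM). Control 1 was far above the other libraries and mutant 1 was above control 2, so the genotypes overlapped. Adcy3 changed by -1.29 on the log2 scale (SE 0.28, 95% interval -1.84 to -0.74) and had the smallest edgeR adjusted p of the 5 genes, 0.000583, with ratios of -0.997 and -1.58. Exons of the centromere gene Cenpo on the opposite strand cover 22.1% of the Adcy3 exon sequence, and Cenpo was at 8.13 to 13.6 CPM over the 4 libraries. For Gnal the corresponding share was 7.63% with Mppe1, which was at 10.4 to 16.7 CPM.

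In 3 of the 5 genes, Gnal, Gnb1 and Ric8b, both mutants were below both controls, as in 13.3% of all tested genes. For a single gene, exact permutation of 2 labels against 2 cannot give a two-sided p below 0.333, so these separations carry no test of their own. The calls rested on the replicate block. Without the block the same 5 log2 fold changes ran from -1.20 for Gnal to -0.75 for Gnb1 and 0 of 5 genes passed (edgeR adjusted p = 1.000 for each). The unadjusted p was 0.0853 for Gnal, 0.0867 for Ric8b, 0.149 for Adcy3, 0.250 for Gng13 and 0.259 for Gnb1. The count of members past the threshold under the other tests can be read beside the share of all tested genes that were lower. It was 5 of 5 under the quasi-likelihood test (3.21% of all genes) and 4 under DESeq2 (3.45%), RLE factors (4.2%), CPM above 1 in all 4 libraries (5.14%), thinning to the smallest library (4.26%) and tally lines kept (4.61%). With every detected gene kept in the fit, Gng13 alone passed, 1 of 5, against 2.31% of all genes. It was 0 of 5 with any library left out, where 0.00671% (no control 1), 0.033% (no control 2), 0.00679% (no mutant 1) and 0% (no mutant 2) of all genes were lower. Without mutant 1, where mutant 2 alone stands for its genotype, the log2 fold changes ran from -2.44 for Adcy3 to -1.05 for Gnb1. Without mutant 2 they ran from -0.62 for Gnal to -0.052 for Gng13.

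**Figure D2:**
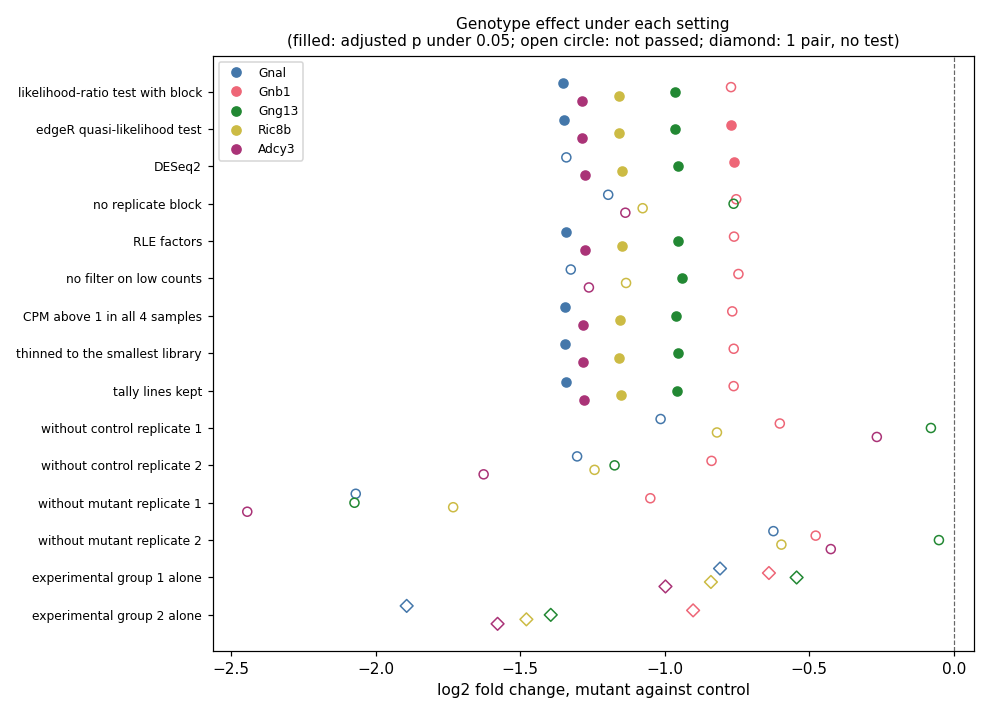
Log2 fold change of mutant against control (x axis) of the 5 genes under each test, filter, scaling and left-out library (y axis), where filled circles passed an adjusted p under 0.05, open circles did not and diamonds are ratios of 1 mutant to 1 control with no test. All values lie below 0, and 0 of 5 genes passed without the block, which the fits with 1 library left out also lacked.

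The experimental groups differed in these genes as well. From experimental group 1 to experimental group 2, Adcy3 fell by 1.68 log2 units (SE 0.28) and Gng13 fell by 1.54 (SE 0.25), with edgeR adjusted p of 1.90e-07 and 3.42e-08. The fall was 0.86 for Gnal and 0.77 for Ric8b (edgeR adjusted p = 0.0275 and 0.0161), while Gnb1, at -0.40, missed the threshold (adjusted p = 0.285 in edgeR). Of all tested genes, 14% were lower in experimental group 2 by the same test. Among the controls alone, control 1 exceeded control 2 by 1.39 (Adcy3), 1.12 (Gng13), 0.45 (Ric8b), 0.32 (Gnal) and 0.27 (Gnb1) on the log2 CPM scale. For Adcy3 and Gng13 the fitted step between experimental groups was larger in size than the genotype effect of -1.29 (SE 0.28) and -0.97 (SE 0.25). The step and the genotype effect were not compared by a test. The share of tallied alignments that were not unique, and so not counted, was 68.3 and 62.7% in control 1 and mutant 1, and 26.3 and 25.9% in control 2 and mutant 2. Its part in the step was not tested.

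The 5 profiles were not alike. The profile over the 4 libraries was compared between genes as the root mean square distance of mean-centred log2 CPM, a description over 4 values that share libraries. Gnal and Ric8b, the alpha subunit and its exchange factor, were 0.153 apart, and 14 of 10742 genes with a mean above 10 CPM were nearer to Gnal than Ric8b was. Gng13 and Adcy3 were 0.185 apart, and 82 of these genes were nearer to Gng13 than Adcy3 was. The widest distance was 0.694, between Gnb1 and Adcy3, with 8237 of these genes nearer to Gnb1 than Adcy3 was. The Gnal to Ric8b log2 ratio of CPM was 0.82, 0.95, 0.85 and 0.54 in control 1, control 2, mutant 1 and mutant 2. The Gnal to Gnb1 log2 ratio was -0.21, -0.26, -0.38 and -1.25, so in mutant 2 Gnal was lower against its beta subunit than in the other 3 libraries. Apart from the 5 genes, the profiles nearest to Gnal were those of Rasgrp4, Vwa3a and Gpr158, at 0.051 to 0.054. Nearest to Gnb1 were Stk36, Socs5 and Srcin1. Kcnh3, Efna3 and Igsf8 were nearest to Gng13, and Cend1, Scgn and Nsg1 to Adcy3. Syt1, the synaptic vesicle calcium sensor, D130043K22Rik and the phosphodiesterase gene Pde4a were nearest to Ric8b.

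Levels of different genes were compared per kb of exon (CPM divided by the union of annotated exons). In control 1, Gng13 was at 463, Gnb1 at 361, Adcy3 at 279, Ric8b at 143 and Gnal at 119 CPM per kb. In mutant 2 the order was Gnb1 (161), Gng13 (80.9), Ric8b (37.5), Adcy3 (35.8) and Gnal (25.7). Control 2 had 300.3 (Gnb1), 213 (Gng13), 107 (Adcy3), 105 (Ric8b) and 95.6 (Gnal) CPM per kb, so Gnb1 stood above Gng13 in both libraries of experimental group 2. Among the neighbours in the order of control 1, only Gnb1 and Adcy3 had control levels that did not overlap. Gng13 and Gnb1, Adcy3 and Ric8b, and Ric8b and Gnal were not separated beyond the spread of the 2 controls. With the longest transcript as length Gnal stood above Ric8b in the controls, with mean levels of 209 and 186.

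Each member was then set beside its relatives, the other genes of its family (the plot of family levels). Gnas, which encodes the widely used stimulatory alpha subunit Gs, was at 366, 399, 434 and 540 CPM in control 1, control 2, mutant 1 and mutant 2, and its log2 fold change of 0.34 missed the threshold (edgeR adjusted p = 0.564). Per kb, Gnal exceeded Gnas 3.64-fold in control 1, 2.68-fold in control 2 and 1.75-fold in mutant 1, but in mutant 2 it was at 0.533 of the Gnas level. The mutants were below both controls in this ratio. Gnal made up 43.5% and 33.1% of the summed per kb level of the G alpha family in controls 1 and 2, and 28.5% and 10.6% in mutants 1 and 2. With the longest transcript as length the Gnal to Gnas ratios were 2.50, 1.84, 1.21 and 0.367, in the same order of libraries.

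The beta subunits gave a similar picture. Gnb2, a beta subunit found in most cells, was at 201, 162, 240 and 238 CPM in control 1, control 2, mutant 1 and mutant 2 (log2 fold change 0.40, edgeR adjusted p = 0.343, not passed). Per kb, Gnb1 exceeded it 6.11-fold and 6.29-fold in controls 1 and 2, and 3.30-fold and 2.30-fold in mutants 1 and 2. Gnb5, an atypical beta subunit that pairs with RGS proteins, was lower at -0.70 (SE 0.23; adjusted p = 0.0403 in edgeR), a call that neither the quasi-likelihood test nor DESeq2 made.

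Among gamma subunits, Gng13 kept the highest per kb level in all 4 libraries. Gng5, a widely expressed gamma subunit, rose by 0.54 log2 units (SE 0.17; adjusted p = 0.0280 in edgeR), again a call that neither the quasi-likelihood test nor DESeq2 made. It went from 36.0 to 51.5 CPM in experimental group 1 and from 60.5 to 88.9 CPM in experimental group 2. The Gng13 to Gng5 ratio per kb was 35.6 in control 1, 17.1 in mutant 1, 9.73 in control 2 and 2.52 in mutant 2, lower in the mutant of each experimental group but overlapping between genotypes. Gng8, the gamma subunit of immature olfactory neurons, was at 20.9, 29.0, 23.7 and 28.4 CPM in control 1, control 2, mutant 1 and mutant 2 (log2 fold change 0.07, edgeR adjusted p = 0.949, not passed). The Gng13 to Gng8 ratio per kb was 33.7, 11.2, 20.4 and 4.34 in the same libraries.

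Adcy3 was the main cyclase by this measure, with 95.3% and 89.0% of the summed per kb level of the adenylyl cyclase family in controls 1 and 2, and 90.3% and 68.8% in mutants 1 and 2. Adcy6 was next in every library, and its log2 fold change was 0.36 (edgeR adjusted p = 0.382, not passed). Ric8b exceeded Ric8a, the chaperone of other alpha subunits, 7.34-fold and 6.34-fold per kb in controls 1 and 2, and 4.61-fold and 1.98-fold in mutants 1 and 2. Ric8a was at 117 to 138 CPM in the 4 libraries, and its log2 fold change was 0.01 (SE 0.19; adjusted p = 0.991 in edgeR, not passed).

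**Figure D3:**
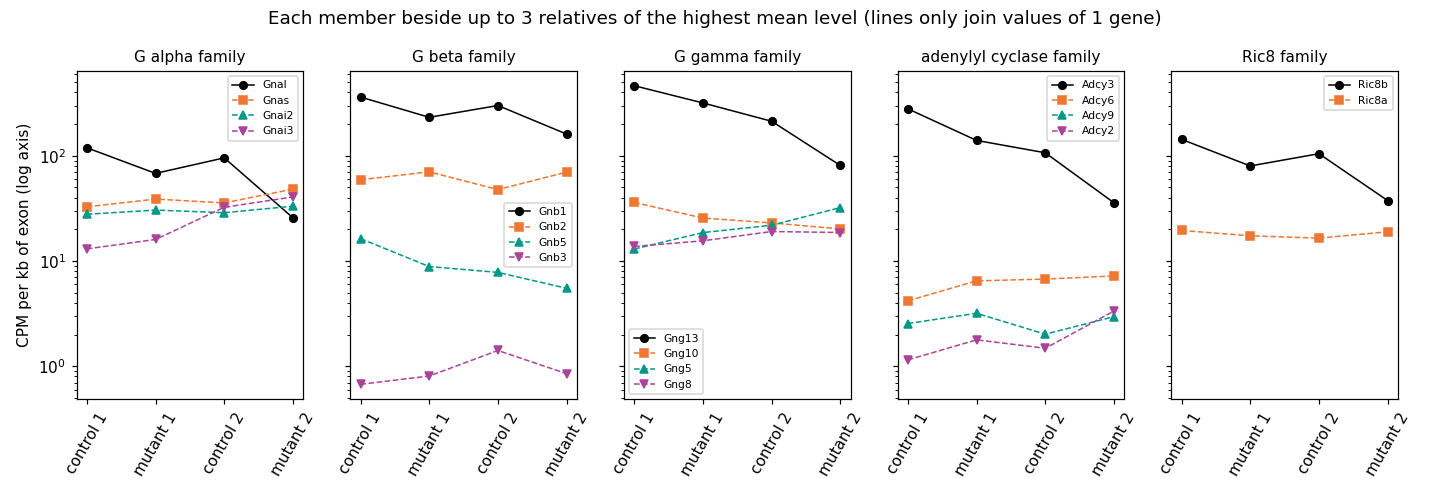
CPM per kb of exon (log axis) in each library of each member (black) beside up to 3 relatives of the highest mean level, with lines that only join the values of 1 gene. Gnal crosses below Gnas, Gnai2 and Gnai3 in mutant 2 (with the longest transcript as length it stays above Gnai3, at 50.1 against 40.6), whereas Gnb1, Gng13, Adcy3 and Ric8b remain above their relatives in all 4 libraries.

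Across the families without the members, 14 other G alpha genes were tested and 0 were lower or higher by the edgeR likelihood-ratio test, the quasi-likelihood test or DESeq2 (2 were lower at an unadjusted p under 0.05), and their median log2 fold change was 0.19. Of these, Gnai1, Gnai2, Gnai3, Gnao1, Gnaz, Gnaq, Gna11, Gna12, Gna13 and Gna14 were, like Gnas, above 10 CPM on average, with log2 fold changes from -0.44 for Gnaz to 0.35 for Gnai1. Of 4 other G beta genes, Gnb5 was lower. Of 9 other G gamma genes, Gng5 was higher, and Gng2, Gng8, Gng10 and Gng12 did not pass with log2 fold changes from -0.34 to 0.46. Of 7 other cyclase genes, 0 passed by any of the 3 tests (1 was higher at an unadjusted p under 0.05), and Adcy9, above 10 CPM on average, was at 0.44. The list medians were -0.19, 0.29 and -0.05 for the beta, gamma and cyclase genes.

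Downstream of the cyclase, 7 of 11 other transduction genes were lower and 0 were higher (7 under the quasi-likelihood test, 4 under DESeq2). Their median log2 fold change was -1.04. The channel subunits Cnga2, Cnga4 and Cngb1, which open when cyclic AMP rises, had log2 fold changes of -1.29 (SE 0.28), -1.51 (SE 0.29) and -1.37 (SE 0.26). Their edgeR adjusted p were 0.000580, 9.85e-05 and 3.47e-05. Ano2, the calcium-activated chloride channel that amplifies the current, fell by 1.37 log2 units (SE 0.28; adjusted p = 0.000284 in edgeR). The genes that end the signal were split. Pde1c and Pde4a, phosphodiesterases that break down cyclic AMP, fell by 1.10 and 1.04 (edgeR adjusted p = 9.94e-05 and 3.97e-05), and Slc24a4, the calcium exchanger of the cilia, fell by 0.73 (edgeR adjusted p = 0.00507). Grk3, the receptor kinase, Arrb2, the arrestin, and Rgs2, which restrains the cyclase, had log2 fold changes of 0.09, -0.39 and 0.02, none of which passed (adjusted p = 0.928, 0.208 and 0.989 in edgeR). Slc12a2, the chloride importer that is also abundant in supporting cells, was at -0.23 (edgeR adjusted p = 0.768, not passed).

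**Figure D4:**
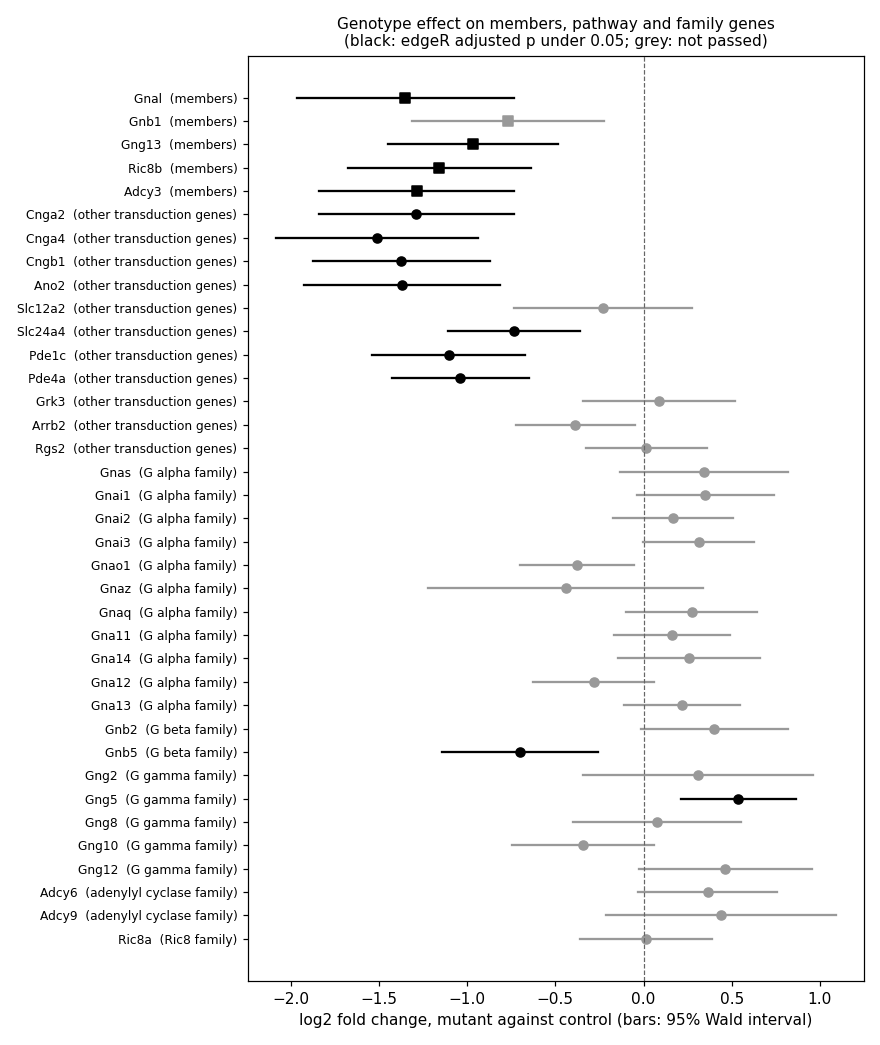
Log2 fold change of mutant against control (x axis) with its 95% Wald interval for the 5 members (squares), other transduction genes and relatives that passed or exceeded 10 CPM on average (circles), where black marks an edgeR adjusted p under 0.05. Gnal, Gng13, Ric8b and Adcy3 lie with the channel genes between -1.51 and -0.97, whereas the other G alpha and cyclase genes drawn lie between -0.44 and 0.44. With the tested relatives of lower level that are not drawn, the range was -2.33 to 0.36 for other G alpha genes. For other cyclase genes it was -0.79 to 0.90.

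Markers of mature neurons were lower as well. All 7 mature neuron markers listed (Omp, Stoml3, Rtp1, Rtp2, S100a5, Kirrel2 and Umodl1) were lower by both edgeR tests, and 5 of 7 were under DESeq2. Their median log2 fold change was -1.36, and their summed level was 16191, 6464, 8748 and 1874 CPM in control 1, control 2, mutant 1 and mutant 2. Relative to Omp, the marker protein of mature neurons, Gnal differed between mutant and control by 0.04 in experimental group 1 and -0.05 in experimental group 2 on the log2 scale. The same difference was 0.01 and 0.36 for Ric8b, -0.15 and 0.26 for Adcy3, 0.31 and 0.45 for Gng13, and 0.21 and 0.94 for Gnb1. Gnb1 in experimental group 2 thus had the largest of these differences, being higher against Omp in the mutant than in the control. These ratios rest on 1 mutant and 1 control each and carry no test.

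Markers of other cells in the sort were examined in the same way. Of 8 immature neuron markers, Dcx was lower and the others did not pass, and the median log2 fold change of the list was -0.24. The summed level was 2126 CPM in control 1 and 1735 CPM in mutant 1, and 1653 CPM in control 2 and 1454 CPM in mutant 2. Of 8 progenitor markers, 4 were higher (Kit, Hes6, Mki67 and Top2a; 3 under the quasi-likelihood test and 4 under DESeq2), and the summed level was 343 and 365 CPM in the controls and 492 and 527 CPM in the mutants. Krt15 was the 1 of 5 horizontal basal cell markers that was higher (4 of 5 were under DESeq2). Of 6 sustentacular cell markers 0 passed (edgeR likelihood-ratio test), while 1 was higher at an unadjusted p under 0.05, 1 under the quasi-likelihood test and 2 under DESeq2, with sums of 8388 and 10291 CPM in experimental group 1 and 17312 and 21840 CPM in experimental group 2. Trpm5 was the 1 of 7 microvillar and tuft cell markers that was lower, and their sum was 162 and 164 CPM in the controls and 97.4 and 115 CPM in the mutants. Gnat3, which defines tuft and taste cells, was at 0.519 to 10.9 CPM. Of 5 ensheathing glia markers Fabp7 was lower. Their sum was 118 CPM in control 1 and 53.6 CPM in mutant 1, and 68.3 CPM in control 2 and 52.5 CPM in mutant 2, with median log2 ratios of -1.14 and -0.30 in experimental groups 1 and 2. Of 8 tested immune markers 0 passed by any of the 3 tests or at an unadjusted p under 0.05. Their sum was 392 CPM in control 1 and 212 CPM in mutant 1, and 720 CPM in control 2 and 636 CPM in mutant 2. Their median log2 ratios were -1.59 and 0.85, so in experimental group 1 the glial and immune medians were below those of the mature neuron markers (-0.85) and of the members (-0.81). The T and B cell genes Cd3e and Cd79a were below 1 CPM in all 4 libraries. The part that a shift between these cell types has in the levels of Gnal, Gnb1, Gng13, Ric8b and Adcy3 was not tested.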

How the data were processed

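The deposited values are whole-number read counts per gene symbol, which the authors made with HTSeq after ribosomal RNA depletion, removal of ribosomal reads with Bowtie2 2.0.6 and alignment of single-end reads with TopHat2 2.0.7 to mm10, per the labels and the study's methods. The intersection-nonempty mode was used, so reads in exons shared by several genes were not assigned unless the strand told them apart. Library sizes, filter and tests exclude the 5 tally lines, and sums per library ranged from 14833396 to 23704638.

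Genes above 1 CPM in at least 2 libraries (15438) were fitted with edgeR 4.0.16 in R 4.3.3 (TMM factors, common, trended and tagwise dispersions, genotype and experimental group as terms). The likelihood-ratio test was Benjamini-Hochberg adjusted over all tested genes with a threshold of 0.05. SE are Wald errors. Ratios within an experimental group use log2 CPM with a prior count of 2. The pairing comes from the design text and methods (littermates treated and prepared together), and deviations from the genotype means correlated with r = 0.52 across genes. Alternatives were the quasi-likelihood test, DESeq2 1.42.0, no block, RLE factors, other filters, thinning, tally lines kept, left-out libraries and transcript lengths. Genes came from GENCODE M21 (mm10) and promoters from RefSeq. Named genes were the members, the pathway and family genes that passed or had a mean above 10 CPM, and the 3 nearest profiles per member. Members, lists and motifs were chosen with earlier results of these data known. The scripts were tested on simulated data. No pair of libraries agreed within sampling noise.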

Additional observations from a re-analysis of the deposited data

Results flagged for a closer look

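Several values had opposite signs in the 2 experimental groups, which hold 1 mutant and 1 control each, and the differences between the groups were not tested. Log2 ratios of mutant to control in experimental groups 1 and 2 were -0.12 and 0.15 for Rgs2, 0.18 and -0.031 for Gng8, and -0.17 and 0.20 for Ric8a. The median over the G beta family was 0.25 and -0.71, although Gnb1 itself was negative in both, and the median over the adenylyl cyclase family was -0.32 and 0.14, although Adcy3 was negative in both. The median over immune markers was -1.59 and 0.85. Of the uniquely aligned reads of mutant 1, 39.4% lay outside annotated genes and enter no comparison, compared with 23.8 and 24.9% in controls 1 and 2.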

How the results depend on the processing

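All 5 log2 fold changes stayed negative under every alternative run, including each experimental group alone. With RLE factors, CPM above 1 in all 4 libraries, thinning to the smallest library or tally lines kept, 4 of 5 members were lower. Under the quasi-likelihood test 5 were, Gnb1 passing at -0.77 (edgeR adjusted p = 0.0153), and higher genes numbered 115 in place of 197. Under DESeq2 4 were, Gnal not passing at -1.34 (DESeq2 adjusted p = 0.104) and Gnb1 passing at -0.76. With no low-count filter 1 was lower, and the log2 fold changes that no longer passed were -1.32 (Gnal), -1.13 (Ric8b) and -1.26 (Adcy3), with tagwise dispersions up from 0.0475 to 0.198, from 0.0336 to 0.0955 and from 0.0380 to 0.191. The median of all genes in that fit was 0.14. Without the replicate block 0 members were lower, with log2 fold changes of -1.20 (Gnal), -0.76 (Gng13), -1.08 (Ric8b) and -1.14 (Adcy3). In that fit 0 genes were lower and 6 were higher (348 genes with an unadjusted p under 0.05, 189 of them lower, compared with 2460 and 1485 with the block), and the member, transduction, alpha, beta, gamma and cyclase lists each had 0. The gamma list had 1 gene past the threshold under the quasi-likelihood test, in place of 2.

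With 1 library left out and no block, since the block then leaves no residual degrees of freedom, the lone sample is assumed to vary like the others. Lower members numbered 0 each time, lower genes 0 to 5 and higher genes 3 to 33. Log2 fold changes ranged from -2.07 to -0.62 for Gnal, from -1.05 to -0.48 for Gnb1, from -2.07 to -0.052 for Gng13, from -1.73 to -0.60 for Ric8b and from -2.44 to -0.27 for Adcy3. Without control 1 the value of Gng13 was -0.08 and that of Adcy3 was -0.27. Without mutant 1 they were -2.07 and -2.44, and without mutant 2 they were -0.052 and -0.43.

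For the step between experimental groups, alternatives chosen after seeing the data gave -0.40 for Gnb1 under the quasi-likelihood test (now passing, edgeR adjusted p = 0.0246). With no low-count filter they gave -0.79 for Gnal, -0.71 for Ric8b and -1.61 for Adcy3, which no longer passed. With the longest transcript in place of the exon union, the mean control level per kb was 209 for Gnal, 449 for Gnb1 and 186 for Ric8b, in place of 107, 331 and 124. Causes were not tested, and the dispersions given are fitted values set beside the calls. With 2 mice per genotype and reads without molecular identifiers, p-values cover the spread between these libraries only.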
